A study of Mus musculus with 9 samples.

Results

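Genes that mark the contractile and supporting cells of blood vessels were followed in ageing kidney. They were chosen by name, as contractile, pericyte and myofibroblast markers, by a rule that used no measured value. Earlier results of these data were known when they were chosen. The genes were Acta2, Myh11, Myl9, Tagln, Cnn1, Des, Pdgfrb, Pdgfra, Rgs5 and Notch3. All 10 were measured, each by 1 probe set of its own, among 19938 genes on the arrays. A gene was taken from probe sets with exactly 1 gene symbol, by the brightest where there were several. Whole kidneys came from wild type female mice of a mixed FVB/C57BL6 background, 5 at 96 weeks of age and 4 at 14 weeks, after perfusion with phosphate-buffered saline, and each kidney RNA was hybridized to 1 Affymetrix Mouse Gene ST array. The age groups shared sex, genotype, background and tissue, and the values are log2 expression values after robust multi-array averaging (RMA). Whole kidney RNA is a mixture of all cells of the organ, so that fewer cells of a type and less RNA per cell cannot be told apart.

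Vascular smooth muscle cells wrap the renal arteries and arterioles and set their tone, mesangial cells hold the capillary loops of the glomerulus, and pericytes sit on the peritubular capillaries and the vasa recta of the medulla. Force is made by smooth muscle myosin pulling on alpha smooth muscle actin, under the control of the myosin light chain and its kinase. Serum response factor (SRF) with its cofactor myocardin drives many contractile genes through a short DNA motif, the CArG box. Pericytes are recruited and kept by PDGF-B from the endothelium, which acts on Pdgfrb, and Notch3 keeps arterial smooth muscle cells in a mature state. Pdgfra is carried by interstitial fibroblasts, and Acta2 also appears in myofibroblasts, the matrix-making cells of scarred kidney.

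The stretches before the start sites of Acta2, Myl9 and Cnn1 are shown as examples of windows of contractile genes with and without a form of the SRF motif, and no relation between the motif and the change with age was tested. A CArG box has 10 bases, 2 C, then 6 bases that are A or T, then 2 G. The motif reads the same on both strands, and near matches with 1 G or C among the 6 inner bases were counted as well. RefSeq windows on build GRCm38.p6 were found for 7 of the 10 genes, and the 250 bases before the start were searched. Capitals mark the motifs, each line runs 5′ to 3′ on the strand of the gene, and no motif overlapped another.
Acta2, chr19:34255374-34255623, minus strand: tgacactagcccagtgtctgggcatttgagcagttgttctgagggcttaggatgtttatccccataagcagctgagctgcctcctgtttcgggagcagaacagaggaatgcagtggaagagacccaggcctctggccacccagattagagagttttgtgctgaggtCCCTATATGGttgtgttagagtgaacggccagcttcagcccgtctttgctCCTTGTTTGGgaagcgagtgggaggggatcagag
Myl9, chr2:156775214-156775463, plus strand: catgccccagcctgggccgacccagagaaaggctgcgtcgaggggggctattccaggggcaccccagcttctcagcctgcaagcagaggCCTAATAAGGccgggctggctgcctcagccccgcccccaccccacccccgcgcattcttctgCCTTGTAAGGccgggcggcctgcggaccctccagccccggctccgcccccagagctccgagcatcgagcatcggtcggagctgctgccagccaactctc
Cnn1, chr9:22099003-22099252, plus strand: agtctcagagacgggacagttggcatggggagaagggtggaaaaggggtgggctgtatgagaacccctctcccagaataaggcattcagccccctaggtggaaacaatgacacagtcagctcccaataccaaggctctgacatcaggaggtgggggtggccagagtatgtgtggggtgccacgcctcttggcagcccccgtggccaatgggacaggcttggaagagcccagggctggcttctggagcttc

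Acta2 held 2 near matches, beginning 84 and 34 bases before the start. Myl9 held 1 exact CArG box, beginning 161 bases before the start, and 1 near match beginning 99 bases before it. The windows of Cnn1, Des, Pdgfra, Rgs5 and Notch3 held neither form. Over all 32851 RefSeq windows of this length, 1.47% held an exact box, 8.59% an exact box or a near match, and 0.67% at least 2 of them. A match of letters is a description of the window and not a measured binding site. No match says only that these letters are not in the window.

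Of the 10 genes, Myl9 rose and Myh11 fell at an adjusted p under 0.05 from limma, which are 2 chains of the same myosin motor. Over all genes, 6.72% passed this threshold in either direction, 4.31% higher and 2.40% lower at 96 weeks. None of the 10 genes reached a 1.5-fold change with an unadjusted p under 0.05, the thresholds of the study's methods, against 1.60% of all genes. At an unadjusted p under 0.05 alone, 5 of the 10 passed in limma, 3 higher and 2 lower, against 28.5% of all genes. The 5 were Acta2, Myl9, Tagln, Myh11 and Cnn1, the genes of actin, of the myosin chains and of the proteins that bind actin. The 2 age groups did not overlap for Myl9 and Myh11, and over all genes they did not overlap for 13.3%. With 10 genes, 1 call more or less moves a share by 10 percentage points. The median log2 fold change (96 weeks minus 14 weeks) of the 10 genes was -0.01, with 5 positive and 5 negative, against a median of -0.03 over all genes, of which 43.4% were positive.

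**Figure D1:**
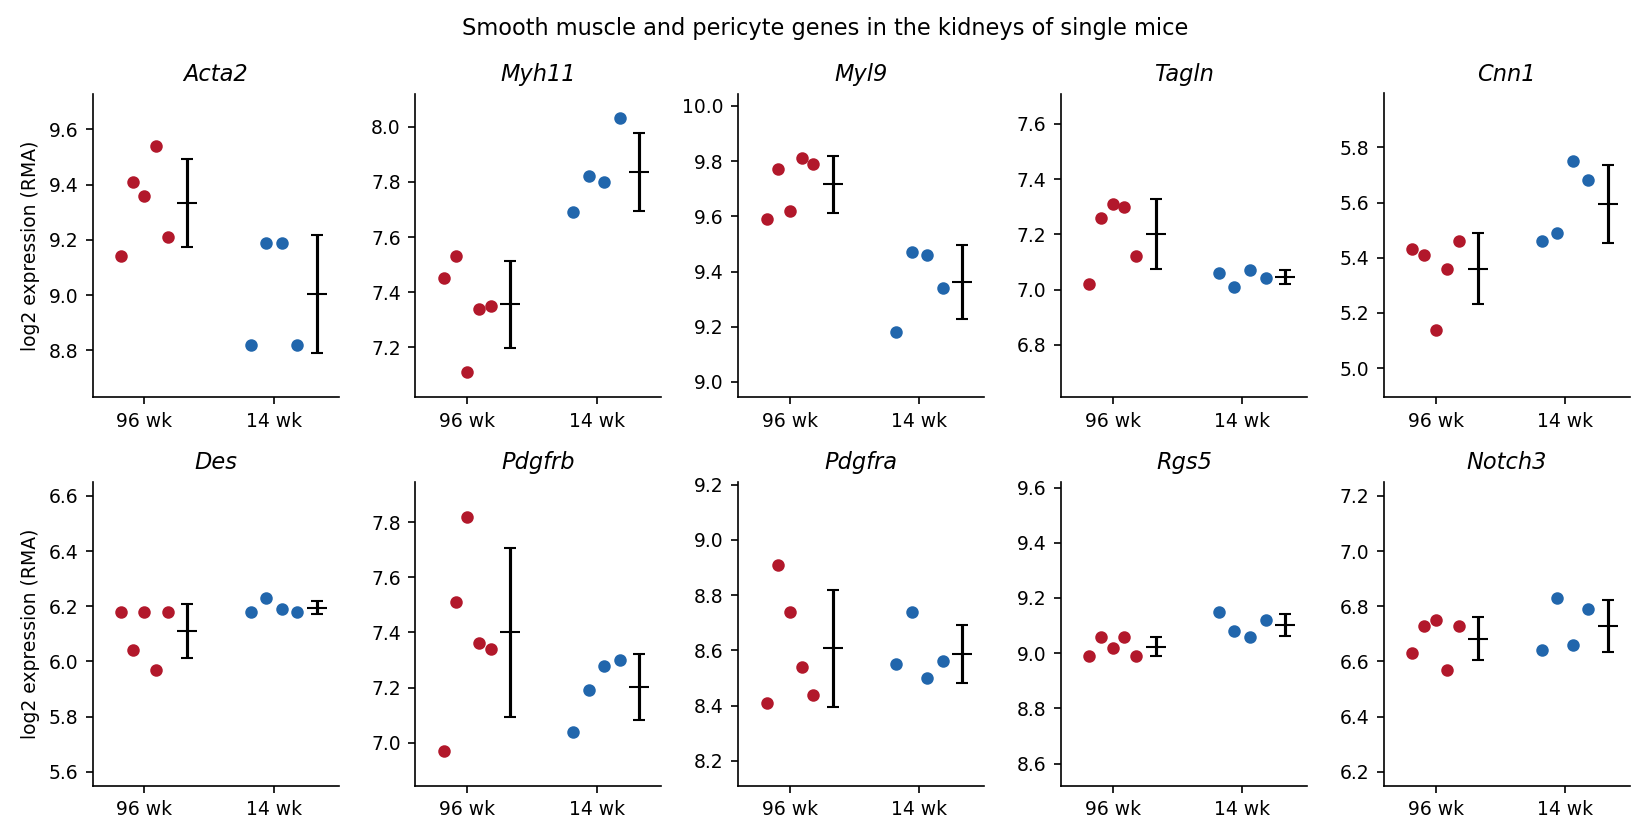
RMA log2 expression of each of the 10 genes in the kidneys of 5 mice at 96 weeks (red) and 4 mice at 14 weeks (blue). Points are mice, the black bar is the mean with 1 SD, and all panels span the same log2 range. The ages are apart only for Myh11, lower at 96 weeks, and Myl9, higher at 96 weeks.

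Myl9 is the regulatory light chain of smooth muscle and non-muscle myosin, whose phosphorylation starts contraction. Its log2 expression was 9.59, 9.77, 9.62, 9.81 and 9.79 in the 5 kidneys at 96 weeks, against 9.18, 9.47, 9.46 and 9.34 in the 4 kidneys at 14 weeks. Every old kidney lay above every young one. The mean was 9.72 ± 0.10 at 96 weeks (SD, n = 5) and 9.36 ± 0.13 at 14 weeks (SD, n = 4), a 1.28-fold rise. On the log2 scale the change was 0.35 (standard error 0.08, 95% interval 0.19 to 0.52, adjusted p = 0.025 from limma). The exact two-sided permutation test gave p = 0.016, the smallest that 5 against 4 arrays allow here. The call was lost without replicate 2 (adjusted p = 0.054 from limma) or 5 (0.053) of the old mice, without replicate 1 (0.057) or 4 (0.071) of the young mice, and after adjustment of the methods' t-test (0.074). The direction held in each of these.

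Myh11 is the smooth muscle myosin heavy chain, the motor protein that defines the mature smooth muscle cell. It had 7.45, 7.53, 7.11, 7.34 and 7.35 at 96 weeks, against 7.69, 7.82, 7.80 and 8.03 at 14 weeks. Every old kidney lay below every young one, and replicate 3 at 96 weeks was the lowest of all. The mean log2 expression was 7.35 ± 0.16 at 96 weeks (SD, n = 5) and 7.83 ± 0.14 at 14 weeks (SD, n = 4). The log2 fold change was -0.48 (standard error 0.09, 95% interval -0.69 to -0.27, adjusted p = 0.019 from limma), so that the level at 96 weeks was 0.72 of that at 14 weeks. The exact two-sided permutation test again gave p = 0.016. The call was lost without replicate 4 at 14 weeks, the highest array (log2 fold change -0.41, adjusted p = 0.054 from limma), and after adjustment of the methods' t-test (0.071).

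Acta2, alpha smooth muscle actin, had the second largest positive value of the 10 genes and did not pass. Its log2 expression was 9.14, 9.41, 9.36, 9.54 and 9.21 at 96 weeks, against 8.82, 9.19, 9.19 and 8.82 at 14 weeks. The young kidneys were split, with replicates 2 and 3 higher than replicates 1 and 4, and 4 of the 5 old kidneys lay above all of them. For actin the log2 fold change was 0.33 (standard error 0.11, 95% interval 0.08 to 0.57, adjusted p = 0.095 from limma; exact two-sided permutation test, p = 0.063).

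Tagln encodes transgelin (SM22), an actin-binding protein of smooth muscle and an early marker of the lineage. It had 7.02, 7.26, 7.31, 7.30 and 7.12 at 96 weeks, against 7.06, 7.01, 7.07 and 7.04 at 14 weeks. Replicate 1 at 96 weeks lay among the young kidneys and the other 4 lay above them. The spread was 0.13 at 96 weeks and 0.02 at 14 weeks (SD), and the log2 fold change was 0.16 (standard error 0.07, adjusted p = 0.15 from limma).

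Cnn1, calponin, binds actin and restrains the myosin motor in differentiated smooth muscle. It had 5.43, 5.41, 5.14, 5.36 and 5.46 at 96 weeks, against 5.46, 5.49, 5.75 and 5.68 at 14 weeks. Replicate 5 at 96 weeks matched the lowest young kidney to 2 decimals, and the other 4 old kidneys lay below all young ones. Calponin thus differed by -0.24 on the log2 scale (95% interval -0.42 to -0.05, adjusted p = 0.11 from limma). Its mean signal was dim, at percentile 28.3 of all genes.

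Des encodes desmin, the intermediate filament of muscle cells, also found in mesangial cells and in injured podocytes. It had 6.18, 6.04, 6.18, 5.97 and 6.18 at 96 weeks, against 6.18, 6.23, 6.19 and 6.18 at 14 weeks. The value was the same, 6.184, on 5 of the 9 arrays, 3 of old and 2 of young mice. On the arrays as a whole, 5.48% of probe sets had 1 value shared by at least 5 arrays. For desmin the log2 fold change was -0.08 (standard error 0.06, 95% interval -0.21 to 0.05, adjusted p = 0.35 from limma). Striated muscle, which also makes desmin, was checked with 12 marker genes, of which 0 passed in limma (2 at an unadjusted p under 0.05, both lower) and 11 had a negative log2 fold change. Over all genes, 28.5% were under this unadjusted p and 43.4% had a positive log2 fold change. The mean signals of these markers lay between percentiles 10.2 and 52.3 of all genes. Their mean log2 level was between 5.45 and 5.61 at 96 weeks, against 5.61 to 5.71 at 14 weeks, and their part in the values of Des was not tested.

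**Figure D2:**
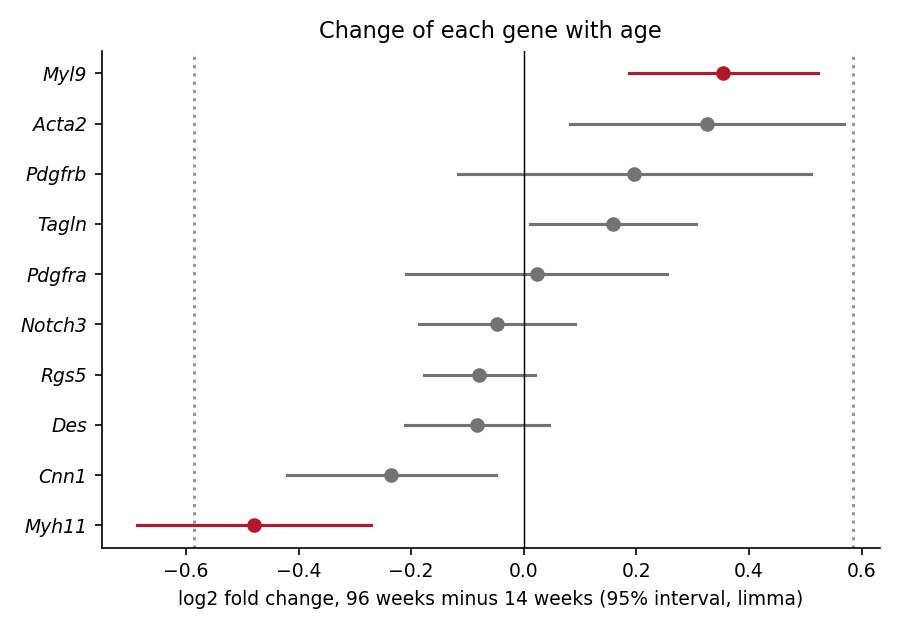
Log2 fold change (96 weeks minus 14 weeks) of each of the 10 genes with its 95% interval from limma. Red marks an adjusted p under 0.05 and the dotted lines mark a 1.5-fold change. Myl9 at 0.35 and Myh11 at -0.48 passed, and the interval of Myh11 is the only one to cross a dotted line.

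Pdgfrb is the receptor for PDGF-B on pericytes and mesangial cells. It had 6.97, 7.51, 7.82, 7.36 and 7.34 at 96 weeks, against 7.04, 7.19, 7.28 and 7.30 at 14 weeks. The old kidneys were spread on both sides of the young ones, with replicate 1 below all of them and the other 4 above. The SD was 0.31 at 96 weeks and 0.12 at 14 weeks, and the log2 fold change was 0.20 (standard error 0.14, 95% interval -0.12 to 0.51, adjusted p = 0.37 from limma). Without replicate 3 at 96 weeks it was 0.09, and without replicate 1 at 96 weeks it was 0.30.

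Pdgfra, the receptor of interstitial fibroblasts for PDGF-A and PDGF-C, had 8.41, 8.91, 8.74, 8.54 and 8.44 at 96 weeks, against 8.55, 8.74, 8.50 and 8.56 at 14 weeks. Old kidneys lay above, among and below the young ones. The log2 fold change was 0.02 (standard error 0.10, 95% interval -0.21 to 0.25, adjusted p = 0.90 from limma), and its sign turned in 4 of 16 other settings, between -0.06 and 0.07.

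Rgs5, which damps signalling from vasoconstrictor receptors and is a pericyte marker, had 8.99, 9.06, 9.02, 9.06 and 8.99 at 96 weeks, against 9.15, 9.08, 9.06 and 9.12 at 14 weeks. Of the old kidneys 3 lay below all young ones, and the log2 fold change was small, -0.08 (standard error 0.04, 95% interval -0.18 to 0.02, adjusted p = 0.26 from limma; exact two-sided permutation test, p = 0.048). A repeated quantile normalization gave -0.16 (adjusted p = 0.076 from limma). Notch3 had 6.63, 6.73, 6.75, 6.57 and 6.73 at 96 weeks, against 6.64, 6.83, 6.66 and 6.79 at 14 weeks. The groups overlapped, and the log2 fold change was -0.05 (standard error 0.06, 95% interval -0.19 to 0.09, adjusted p = 0.62 from limma).

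**Figure D3:**
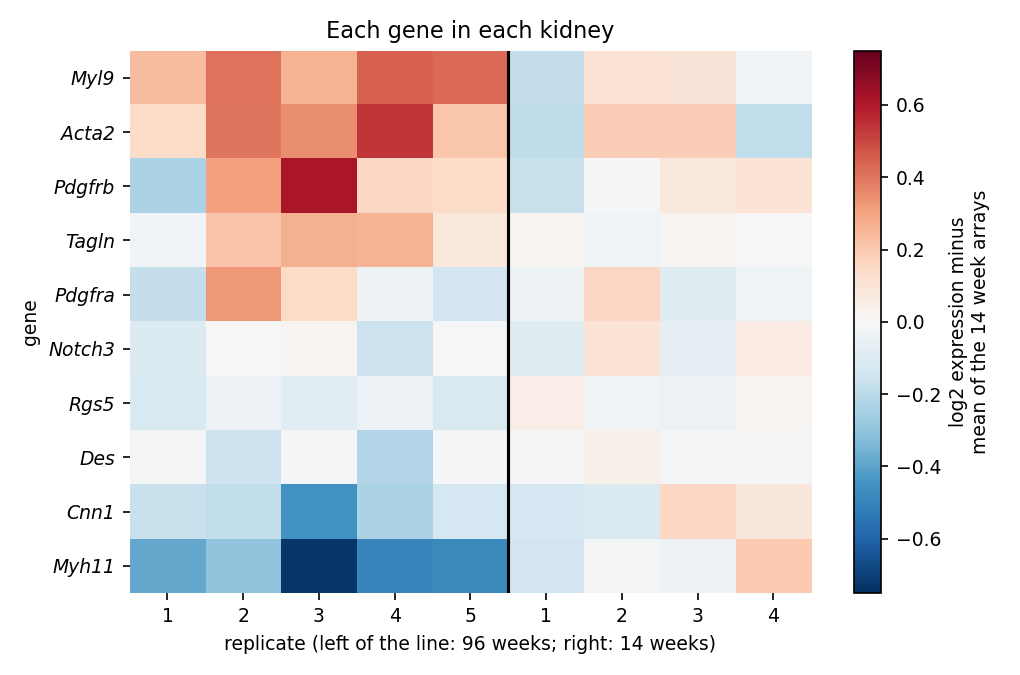
Log2 expression of each gene in each kidney minus its mean over the 14 week arrays, with the 5 replicates at 96 weeks left of the line and the 4 at 14 weeks right of it. Genes are ordered by their log2 fold change. At 96 weeks, Myl9 and Acta2 are red and Myh11 is blue in all 5 kidneys, while Pdgfrb and Pdgfra differ in sign among them.

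Among the old kidneys the genes did not rank alike. Replicate 1 at 96 weeks had the lowest value of its age for 6 of the 10 genes (Acta2, Myl9, Tagln, Pdgfrb, Pdgfra and Rgs5), and replicate 3 the lowest for Myh11 and Cnn1 together with the highest for Tagln, Pdgfrb and Notch3. Replicate 4 at 96 weeks was highest for Acta2 and Myl9. At 14 weeks, replicate 1 was lowest for 6 of the 10 (Acta2, Myh11, Myl9, Cnn1, Pdgfrb and Notch3). The SD was wider at 96 than at 14 weeks for 5 of the 10 genes, with a median of 0.13 at 96 weeks and 0.11 at 14 weeks, against medians of 0.11 and 0.10 over all genes at these ages. These ranks are a description and were not tested.

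The ratio of Acta2 or Myl9 to Myh11 within each array does not depend on the scaling between arrays by a constant. These pairs were picked after their values were seen and are given with no test. Set to a mean of 0 at 14 weeks, the log2 ratio of Acta2 to Myh11 was 0.52, 0.70, 1.08, 1.04 and 0.69 at 96 weeks, against -0.04, 0.20, 0.22 and -0.38 at 14 weeks. The log2 ratio of Myl9 to Myh11 was 0.61, 0.71, 0.99, 0.94 and 0.91 at 96 weeks, against -0.04, 0.12, 0.13 and -0.22 at 14 weeks. In both ratios the 5 old kidneys were higher than the 4 young ones, and on average the ratio was 1.75 times that of young kidneys for Acta2 and 1.78 times for Myl9. For Myl9 to Myh11 this separation was fixed in advance, since Myl9 was higher and Myh11 lower in every old kidney. The ratios restate the values of the single genes and are not a further result. The mean of the macrophage markers was highest in replicates 3 and 4 at 96 weeks, which also had the highest ratios. Csf1r, 1 of these markers, was instead lowest in these replicates among the old kidneys, with 8.63, 8.78, 8.33, 8.50 and 8.61 at 96 weeks. The mean log2 level of 7 macrophage markers was 7.80, 7.50, 8.45, 8.61 and 7.63 at 96 weeks, against 7.08, 7.11, 6.95 and 7.01 at 14 weeks, and their part in these ratios was not tested.

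**Figure D4:**
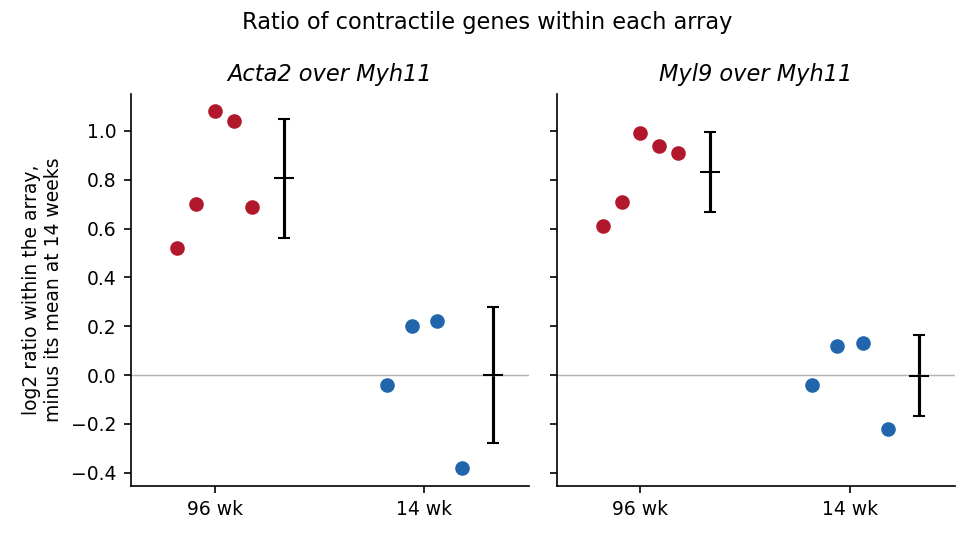
Log2 ratio of Acta2 to Myh11 and of Myl9 to Myh11 within each array, minus its mean at 14 weeks, in 5 kidneys at 96 weeks (red) and 4 at 14 weeks (blue). Points are mice and the black bar is the mean with 1 SD. All old kidneys are at 0.52 or higher and all young ones at 0.22 or lower.

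Among 16 other genes of the contractile apparatus, limma gave 0 an adjusted p under 0.05 and 4 an unadjusted p under 0.05. These thresholds were passed by 6.72% and 28.5% of all genes. After adjustment of the methods' t-test 0 passed, and the median log2 fold change was 0.00. Light chain Myl6 of myosin had 11.92, 12.03, 12.04, 11.94 and 11.95 at 96 weeks, against 11.75, 11.84, 11.81 and 11.57 at 14 weeks. Its log2 fold change was 0.23 (adjusted p = 0.051 from limma). Tropomyosin Tpm1, which lies along the actin filament, had 9.0, 9.0, 9.48, 9.30 and 9.06 at 96 weeks, against 8.78, 8.89, 8.77 and 8.81 at 14 weeks. Its log2 fold change was 0.36 (adjusted p = 0.059 from limma). For Myl6 and Tpm1 every old kidney was above every young one. For the dim actin gene Actg2 every old kidney was below (log2 fold change -0.07, adjusted p = 0.31 from limma). Over all genes, the age groups did not overlap for 13.3%. Myl6 passed in 4 and Tpm1 in 3 of 16 alternatives. Both passed with array weights, with a filter on dim genes and after centring the arrays on their medians. Neither passed on leaving out any single array, with the replicate block or with quantile normalization repeated. Myl6 and Tpm1 are made in most cell types. Tpm2 (0.21, adjusted p = 0.16 from limma) was of the same sign, and Irag1, which carries the relaxing signal of cyclic GMP to the calcium store, had -0.18 (adjusted p = 0.084 from limma).

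Of 8 genes of SRF, its cofactors and regulators, 0 passed in limma (1 at an unadjusted p under 0.05, against 28.5% of all genes). The myocardin gene Myocd had 4.60, 4.34, 4.44, 4.42 and 4.54 at 96 weeks, against 4.78, 4.83, 4.55 and 4.56 at 14 weeks. Of the old kidneys 4 lay below all young ones, at a dim signal (percentile 15.3 of all genes), and the log2 difference was -0.21 with a standard error of 0.08 (limma, adjusted p = 0.12). Klf4, a repressor of contractile genes, had 0.16 (adjusted p = 0.36 from limma), Foxo4 -0.10 (0.33) and Elk1 -0.07 (0.37).

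The 4 PDGF ligands gave 0 calls in limma (1 at an unadjusted p under 0.05, against 28.5% of all genes). Pdgfc, a ligand of Pdgfra, had 8.79, 8.86, 8.51, 8.24 and 8.44 at 96 weeks, against 8.93, 8.92, 8.89 and 8.98 at 14 weeks. All old kidneys were below the young ones, replicate 2 at 96 weeks only just, and the log2 fold change was -0.36 (standard error 0.11, adjusted p = 0.083 from limma). Pdgfa had -0.16 (adjusted p = 0.24 from limma), Pdgfd 0.10 (0.46) and the pericyte ligand Pdgfb -0.02 (0.84).

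Of 13 other genes of the Notch pathway 0 passed in limma (3 at an unadjusted p under 0.05, against 28.5% of all genes). Their median log2 fold change was 0.05. Jag1, a ligand of Notch3 in the vessel wall, had the smallest p, with 7.59, 7.91, 7.73, 7.78 and 7.63 at 96 weeks, against 7.43, 7.59, 7.38 and 7.47 at 14 weeks. Replicate 1 at 96 weeks matched the highest young kidney to 2 decimals, and the log2 fold change was 0.26 (adjusted p = 0.060 from limma). Nrarp, a target gene that limits the pathway, had 0.31 (adjusted p = 0.15 from limma), the ligand Dll1 -0.22 (0.13) and the endothelial receptor Notch4 -0.18 (0.18).

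Of 13 other pericyte and mural cell genes measured, 0 passed in limma (2 at an unadjusted p under 0.05, against 28.5% of all genes). Their median log2 fold change was -0.01. Gucy1a1, a subunit of the nitric oxide receptor, had 7.80, 7.89, 8.49, 7.86 and 7.80 at 96 weeks, against 7.52, 7.68, 7.64 and 7.79 at 14 weeks. All old kidneys were above the young ones, mostly by little, and replicate 3 at 96 weeks stood apart. Its log2 fold change was 0.31 (standard error 0.14, adjusted p = 0.16 from limma), and 0.18 without that array (adjusted p = 0.11 from limma). Higd1b, a pericyte marker, had -0.18 (adjusted p = 0.17 from limma), the proteoglycan NG2 (Cspg4) -0.17 (0.22) and the angiotensin receptor Agtr1a 0.14 (0.30).

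Of 3 mesangial and juxtaglomerular genes measured, Itga8 fell at an adjusted p under 0.05 from limma, against 2.40% of all genes. Itga8 encodes the alpha 8 integrin of mesangial and smooth muscle cells, and it had 7.70, 8.04, 7.94, 7.79 and 7.93 at 96 weeks, against 8.05, 8.35, 8.12 and 8.32 at 14 weeks. Every old kidney lay below every young one, although replicate 2 at 96 weeks (8.04) was next to the lowest young kidney (8.05). Over all genes, the age groups did not overlap for 13.3%. The log2 fold change was -0.33 (standard error 0.09, adjusted p = 0.049 from limma). The call was close to the threshold and was lost on leaving out 8 of the 9 arrays in turn, all but replicate 2 at 96 weeks (adjusted p up to 0.13), with array weights (0.060) and by the methods' t-test after adjustment (0.11). Gata3 had -0.05 and Gja5, a gap junction protein of renin cells, 0.00.

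Of 18 fibroblast and myofibroblast genes, Vim and Tcf21 rose and none fell at an adjusted p under 0.05 from limma, with 6 of the 18 at an unadjusted p under 0.05, all higher. Over all genes these thresholds were passed by 6.72% and 28.5%, which for a list of this size is near the counts found. At 1.5-fold with an unadjusted p under 0.05 from limma, 3 of the 18 passed (Vim, Tcf21 and S100a4), against 1.60% of all genes. Vimentin (Vim), the intermediate filament of mesenchymal and many immune cells, had 9.86, 9.48, 10.29, 10.10 and 9.33 at 96 weeks, against 8.96, 8.96, 8.89 and 8.73 at 14 weeks. Its log2 fold change was 0.93 (standard error 0.18, adjusted p = 0.018 from limma), and every old kidney lay above every young one. The call was lost without replicate 4 at 14 weeks (adjusted p = 0.058 from limma) and after adjustment of the methods' t-test (0.078). Tcf21, a transcription factor of stromal cells and podocytes, had 7.46, 8.11, 8.21, 8.01 and 8.26 at 96 weeks, against 7.32, 7.59, 7.39 and 7.27 at 14 weeks. Replicate 1 at 96 weeks lay among the young kidneys, and the log2 fold change was 0.62 (adjusted p = 0.038 from limma), a call lost on leaving out any array other than replicate 1 at 96 weeks (adjusted p up to 0.11). It was also lost with quantile normalization repeated (adjusted p = 0.062 from limma) and after adjustment of the methods' t-test (0.11).

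The collagen genes of the list had log2 fold changes of -0.02 (Col1a1, 95% interval -0.11 to 0.08), -0.03 (Col1a2, -0.26 to 0.19) and -0.01 (Col3a1, -0.26 to 0.24). The gene of periostin (Postn), a matrix protein of myofibroblasts, had -0.03 (-0.25 to 0.19). The membrane protein podoplanin (Pdpn) had 0.37 (adjusted p = 0.073 from limma) and the matrix proteoglycan lumican (Lum) 0.48 (adjusted p = 0.10). The mean log2 level of the list was between 7.05 and 7.49 at 96 weeks, against 7.0 to 7.10 at 14 weeks. The mean log2 level of 7 macrophage markers was 7.50 to 8.61 at 96 weeks, against 6.95 to 7.11 at 14 weeks. Of these, 3 were higher in limma (Lyz2, Csf1r and Tyrobp), against 4.31% of all genes. The call of Tyrobp was lost on leaving out any of 7 arrays. That of Csf1r was lost after adjustment of the methods' t-test (adjusted p = 0.059) and with the replicate block (adjusted p = 0.072 from limma). Among the old kidneys, Vim was highest in replicates 3 and 4. All of the macrophage markers other than Csf1r were also highest there, such as Lyz2 (10.76 and 10.91) and Tyrobp (9.44 and 9.35). Csf1r was instead lowest in these replicates (8.33 and 8.50). The part of the macrophage markers in the values of Vim was not tested.

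**Figure D5:**
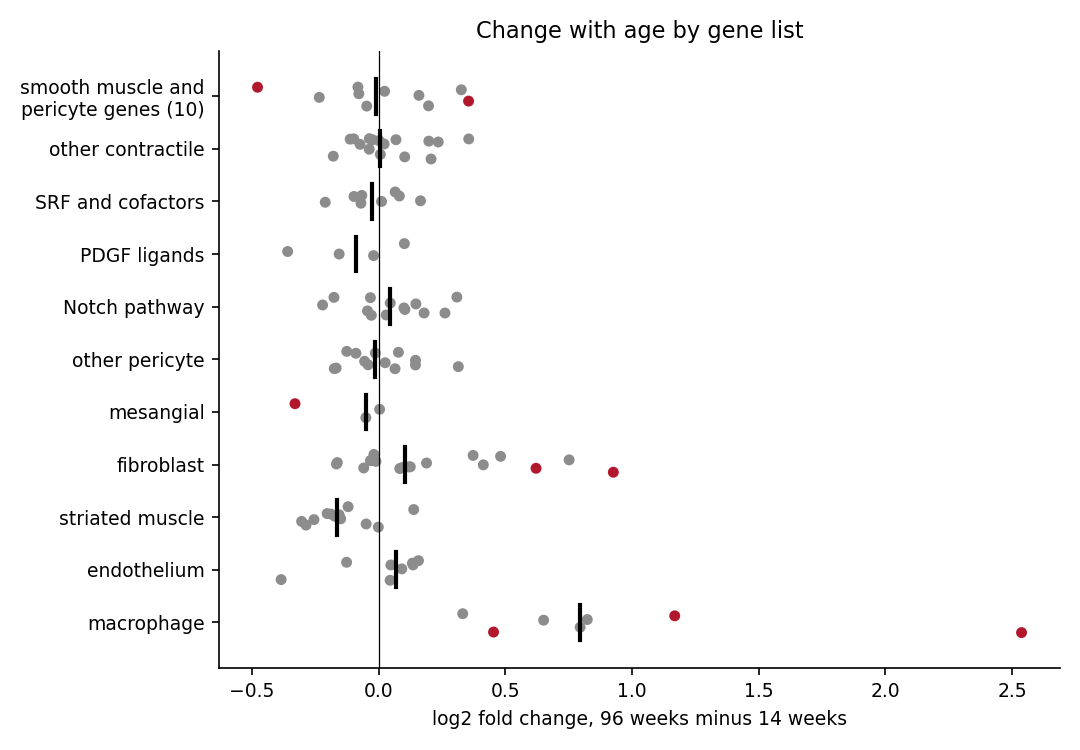
Genes of 11 lists, each point a gene at its log2 fold change, 96 weeks minus 14 weeks, with the list median as a black bar. Red is an adjusted p under 0.05 in limma and grey is any other. The medians of the contractile and pericyte lists are at 0.00 and -0.01, and that of the macrophage markers is at 0.79.

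The arrays themselves were much alike, with correlations between 0.982 and 0.997 over all genes and no identical pair. Kidney epithelium markers had mean log2 levels of 10.64 to 10.99 at 96 weeks, against 10.70 to 10.79 at 14 weeks. Of the 7 measured, 0 passed in limma (0 at an unadjusted p under 0.05, against 28.5% of all genes). Array number limits the precision.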

How the data were processed

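Kidney RNA of 9 mice, 5 at 96 weeks and 4 at 14 weeks, was hybridized to Affymetrix Mouse Gene ST arrays, 1 per mouse. Per the submitters' notes the authors used Affymetrix Power Tools (1.12.0) for RMA with quantile normalization, and the deposited table holds log2 values of 35557 probe sets. Its build is not given in the sources used here. Of the probe sets, 21789 carried 1 gene symbol, and the brightest one stood for a gene, which gave 19938 genes. Of 137 list entries, 131 were measured, and Irag1 was matched through its older symbol Mrvi1. Ages were compared with limma 3.58.1 in R 4.3.3 over all genes, with Benjamini-Hochberg adjustment and a threshold of 0.05, and single genes with an exact permutation test over the 126 splits of the arrays (scipy 1.17.1), which doubles the smaller tail. No filter on dim genes was used.

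The members, lists and tests were chosen with earlier results of these data known. All 10 members are named, with, in each other list, the 4 genes of smallest limma p and those that passed where at most 5 did, and in marker lists those that passed where at most 5 did. The collagens, Postn, S100a4, Dcn, Actg2, Ehd3 and Upk1b were added after their values were seen. On simulated arrays, with noise drawn independently for each gene, limma recovered, among 19938 genes, 79.1% of the 67 with a log2 change of 0.5 and all 67 with a change of 1. It also called 12 unchanged genes. No change smaller than 0.5 was simulated, and all 10 members had smaller ones, so recovery at their sizes is not known. Alternatives covered the methods' t-test, array weights, a filter at the 30th percentile, a repeated quantile normalization, centring on medians, averaging a gene's probe sets, a block for the replicate number, and leaving out arrays in turn. The labels name no scan date or other batch, so none was tested.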

Additional observations from a re-analysis of the deposited data

Results flagged for a closer look

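One array stood apart from the others of its age for 3 of the genes named, by Dixon's ratio of the gap to the range, in 80 tests of which chance gives about 1 in 20. Des was 6.23 in replicate 2 at 14 weeks and between 6.18 and 6.19 in the other 3 young kidneys, a gap of hardly any size. Gucy1a1 was 8.49 in replicate 3 at 96 weeks and between 7.80 and 7.89 in the other 4 old kidneys, and this array also had the highest Pdgfrb of its age. Agtr1a was 8.83 in replicate 3 at 14 weeks and between 8.51 and 8.55 in the other 3 young kidneys.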

How the results depend on the processing

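Of 159 values of the 10 genes under 16 alternatives, 146 kept their direction and side of the threshold, 9 (of Myl9 and Myh11) kept the direction and no longer passed, and 4 changed sign, all of Pdgfra. The log2 fold change of Pdgfra was -0.06 after a repeated quantile normalization and between -0.05 and 0.07 on leaving out single arrays. The number of the 10 genes that passed, 2, was 0 by the methods' t-test, 0 with the replicate block and 0 to 2 on leaving out single arrays. With the block, Myh11 had an adjusted p of 0.070 and Myl9 of 0.069 from limma, as Tcf21 had 0.068 and Itga8 0.071. The labels do not say whether the numbers pair the mice. Deviations of same-numbered arrays correlated between -0.04 and 0.08 over all genes, which cannot exclude a shared factor that acts on a part of the genes. The other contractile genes gave 2 calls with array weights, 2 with a filter on dim genes, 2 after centring on medians and 1 with the mean of probe sets. The filter, which left out Cnn1, gave 1 call in the Notch list (Jag1). The pericyte list gave 0 to 1 on leaving out single arrays. The fibroblast list gave 0 calls by the methods' t-test, 1 with the replicate block, 1 with quantile normalization repeated and 0 to 4 on leaving out single arrays. Of the 10 smooth muscle and pericyte genes, 0 reached 1.5-fold with an unadjusted p under 0.05 in any of the 16 alternatives. Over all genes, 860 were higher and 479 lower at 96 weeks, and with quantile normalization repeated 484 were higher and 505 lower. The 1339 genes called became 367 by the methods' t-test, 368 with the replicate block and 528 to 1135 on leaving out single arrays. All of these fits rest on 9 arrays, and signal over background was not used here.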

Other observations

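Ehd3, a marker of the glomerular endothelium, was lower in every old kidney, with 7.07, 7.40, 6.87, 7.08 and 7.36 at 96 weeks, against 7.43, 7.49, 7.67 and 7.59 at 14 weeks (log2 fold change -0.39, adjusted p = 0.059 from limma). It was singled out after its values were seen, and 0 of 8 endothelial markers passed in limma (1 at an unadjusted p under 0.05). Over all genes, 28.5% were under this unadjusted threshold, the share to set beside each marker count of this paragraph. Among 8 markers of the urothelium, which lines the renal pelvis beside its smooth muscle, 0 passed (1 at an unadjusted p under 0.05, Upk1b with 0.33), and their mean log2 level was 6.23 to 6.37 at 96 weeks, against 6.19 to 6.27 at 14 weeks. The 4 measured adipocyte markers gave 0 calls in limma (1 at an unadjusted p under 0.05), with mean log2 levels of 5.35 to 5.64 at 96 weeks, against 5.54 to 5.98 at 14 weeks. Their mean signals lay between percentiles 16 and 45.9 of all genes.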
